A study of Mus musculus with 8 samples.

Results

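Interferon-stimulated genes are the genes that cells switch on when an interferon, a cytokine released on infection or tissue damage, binds its receptor. The 43 genes described here were chosen by name as a list covering the main families of this response, out of 23523 genes in the deposited table. The choice was made with earlier results of these data known. The 43 genes comprise the Ifit proteins, which bind viral RNA, the Ifitm membrane proteins, the Oas family, the Mx, Gbp and Irg GTPases, sensors of foreign nucleic acid, Isg15 and its enzymes, the transcription factors that carry the response, and a set of other effectors. All 43 were found in the table and all 43 passed the filter on low counts. Messenger RNA was sequenced from 5 mouse glioblastomas and 3 normal mouse brains. The tumours were induced with a lentiviral vector carrying the activated oncogene HrasG12V and an shRNA that targets p53, and were collected once the animals had reached their clinical endpoint. Normal brain was cut away from the tumour, which expressed GFP, under a dissecting microscope. The sources used here do not give the brain region, strain, age or sex of the mice, the cells infected, or the origin of the normal brains. They do not say whether each sample is a different animal, and the p-values therefore cover only the spread between these samples.

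Type I interferons signal through the receptor chains Ifnar1 and Ifnar2 and the kinases Jak1 and Tyk2. The signal reaches promoters through a complex that contains Stat2 and Irf9 and binds the interferon-stimulated response element (ISRE). Interferon gamma signals through Ifngr1 and Ifngr2, Jak1 and Jak2, and is read at the gamma-activated site (GAS). In brain the response is best known from microglia, the resident macrophages, but neurons, astrocytes and endothelial cells also carry the receptors.

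The libraries held 5490356 to 15564279 fragments, and levels are given as CPM, which are counts per 1000000 fragments of a library whose size was adjusted by its TMM factor. At these depths 3 fragments corresponded to 0.175 to 0.541 CPM. Hras was higher in the glioblastomas (log2 fold change 2.05 ± 0.19 SE) and Trp53, the target of the hairpin, was not called (-0.46 ± 0.35, adjusted p = 0.262, edgeR). The levels of marker genes of other cell types were summed. Glioblastomas held 251 to 911 CPM of 8 neuron markers, against 6810 to 7940 CPM in normal brains, and 239 to 840 CPM of 6 myelinating oligodendrocyte markers, against 3090 to 6000 CPM. For 10 macrophage and monocyte markers the summed level was 1020 to 2580 CPM in glioblastomas and 156 to 180 CPM in normal brains, and each of the 10 was higher. For 6 microglia markers the sums were 338 to 411 CPM in glioblastomas and 295 to 313 CPM in normal brains. For 6 astrocyte markers the sums were 895 to 2520 CPM in glioblastomas and 4570 to 5050 CPM in normal brains. Slc1a2 alone held 3000 to 3370 CPM of the sums in normal brains. Of the 6 markers 3 were lower, where 33.9% of all tested genes were, and Gfap, Aldh1l1 and Gja1 were not called. Endothelial markers summed to 219 to 414 CPM in glioblastomas and to 89.9 to 107 CPM in normal brains. These are whole pieces of tissue, in which fewer cells of a type and less RNA per cell cannot be told apart, and the part of these cell types in the results below was not tested.

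The promoters of several members hold letters that match the elements through which the response is read. Whether these letters are bound or used was not tested. Windows of 250 bases before to 50 bases after the gene start were taken from RefSeq, build GRCm38.p6, and 33 of the 43 members matched. Oas2, Mx1, Mx2, Iigp1, Dhx58, Zbp1, Usp18, Parp14, Rtp4 and Ifi27 did not. For the ISRE, a pair of GAAA separated by 2 bases of any kind was searched, or on the other strand a pair of TTTC spaced alike. For the GAS, TTCNNNGAA was searched, which reads the same on both strands. The ISRE letters stood in the windows of 17 of 33 members (51.5%), against 3.99% of the 27025 genes in the promoter table. GAS letters stood in 10 members (30.3%), against 9.55% of all genes in the table. Shown here are the 150 bases before the start of 8 members, with matching letters in capitals. The 8 are examples picked from the members described below. Other such members with a window are not shown, so the 8 do not represent the 33.
Isg15, chr4:156200819-156200968, minus strand: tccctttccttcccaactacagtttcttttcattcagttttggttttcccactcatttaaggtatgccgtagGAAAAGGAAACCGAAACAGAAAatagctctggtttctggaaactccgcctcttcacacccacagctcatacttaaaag
Ifit1, chr19:34640739-34640888, plus strand: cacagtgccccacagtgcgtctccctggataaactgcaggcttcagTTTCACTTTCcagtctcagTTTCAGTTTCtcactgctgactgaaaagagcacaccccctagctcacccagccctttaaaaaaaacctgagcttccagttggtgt
Irgm1, chr11:48871421-48871570, minus strand: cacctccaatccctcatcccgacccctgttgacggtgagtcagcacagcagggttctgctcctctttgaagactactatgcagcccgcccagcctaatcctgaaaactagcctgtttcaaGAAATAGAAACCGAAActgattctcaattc
Igtp, chr11:58199406-58199555, plus strand: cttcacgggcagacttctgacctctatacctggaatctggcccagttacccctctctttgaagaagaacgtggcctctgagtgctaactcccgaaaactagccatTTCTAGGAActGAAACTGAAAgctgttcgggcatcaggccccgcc
Irgm2, chr11:58214827-58214976, plus strand: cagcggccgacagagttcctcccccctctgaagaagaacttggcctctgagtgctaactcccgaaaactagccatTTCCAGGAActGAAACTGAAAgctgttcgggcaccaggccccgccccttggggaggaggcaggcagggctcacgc
Rsad2, chr12:26456453-26456602, minus strand: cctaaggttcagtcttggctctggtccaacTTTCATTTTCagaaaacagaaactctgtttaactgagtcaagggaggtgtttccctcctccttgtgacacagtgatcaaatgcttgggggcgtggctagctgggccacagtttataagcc
Cmpk2, chr12:26469065-26469214, plus strand: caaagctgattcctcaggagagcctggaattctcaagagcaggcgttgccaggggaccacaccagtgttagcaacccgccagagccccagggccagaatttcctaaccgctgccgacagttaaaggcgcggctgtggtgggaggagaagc
Oasl1, chr5:114923090-114923239, plus strand: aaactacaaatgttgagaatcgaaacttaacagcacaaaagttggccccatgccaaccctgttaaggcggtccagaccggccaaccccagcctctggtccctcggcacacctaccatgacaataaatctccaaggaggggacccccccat

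Isg15 carried 3 overlapping ISRE matches that began 78, 72 and 66 bases before its start, and Ifit1 had 2 separate ones at 104 and 85 bases. Irgm1 had 2 overlapping matches at 30 and 24 bases. In Igtp and Irgm2 a GAS match (first run of capitals) preceded an ISRE match (second run), beginning at 45 and 34 bases in Igtp and at 75 and 64 bases in Irgm2. The longest run of bases shared by these 2 sequences was 38 bases. Rsad2 had 1 ISRE match, at 120 bases. Neither set of letters was found in the windows of Cmpk2 and Oasl1, which says nothing of elements written otherwise or lying elsewhere. By family, ISRE letters were found in 5 of 6 Gbp and Irg genes, 2 of 3 Ifit genes, 2 of 3 Ifitm genes, 2 of 4 Oas genes, 2 of 2 sensors, 1 of 3 genes of the Isg15 pathway, 1 of 4 transcription factors and 2 of 8 other effectors. The median log2 fold change was 3.93 for the 17 members with ISRE letters and 3.78 for the 16 without.

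Most of the list was higher in the tumours. Of the 43 members, 41 were higher in glioblastoma and 0 were lower at an adjusted p under 0.05 (edgeR quasi-likelihood test over 14641 genes, Benjamini-Hochberg). Among all tested genes 37.1% were called higher and 33.9% lower. At an unadjusted p under 0.05, 1 member was lower. DESeq2 called 0 members lower and limma on log2 FPKM called 1. For 40 members the change was at least 2-fold, against 27.4% of all tested genes, and for 40 members every tumour was above every normal brain, against 36.1% of all tested genes. The median log2 fold change was 4.04 for the members and 0.06 for all tested genes. The 11 members below the filter level of 1.32 CPM in every normal brain (Ifitm1, Oas1a, Oas2, Oas3, Oasl1, Mx1, Zbp1, Isg15, Irf7, Isg20 and Ifi44) passed the filter only through the tumours. Of 27 members at or above that level in every normal brain, 25 were higher and 0 lower, where 31.7% of all tested genes at that level were higher and 38.1% lower. The members together took 0.17% to 0.293% of fragments in glioblastomas and 0.0212% to 0.0253% in normal brains. Without normal brain 1 and glioblastoma 4, which were set aside together as a check added after the data were seen, 42 members were higher.

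**Figure D1:**
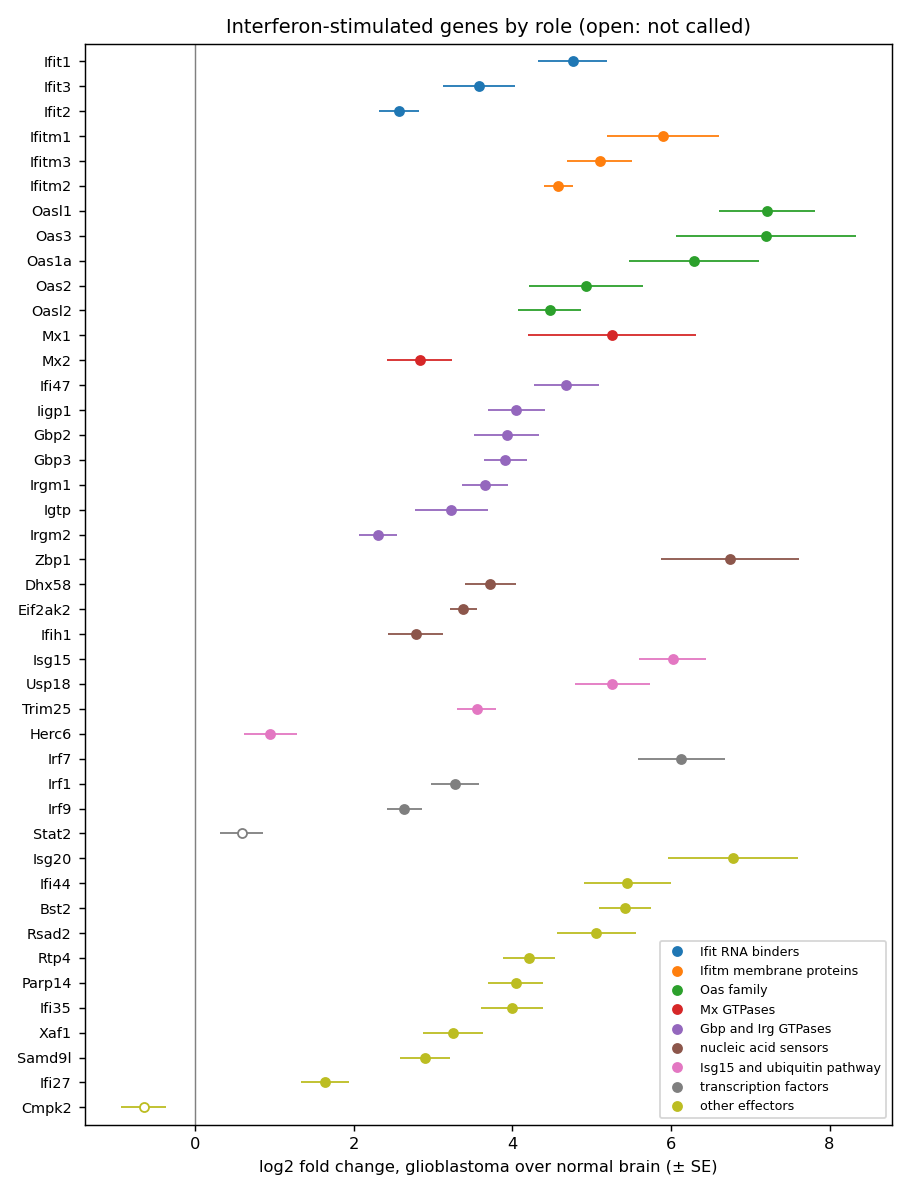
The log2 fold change of glioblastoma over normal brain (x axis) is plotted for each of the 43 members (y axis), coloured by role, with bars of 1 SE from edgeR. The points lie right of 0 except for Cmpk2 at -0.65, and open circles mark Stat2 and Cmpk2, which were not called.

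The interferon genes examined here were close to undetected. Of 10 interferon genes, among them Ifnb1, Ifna1, Ifna2 and Ifng, 7 had no fragment in any library, and none reached the level needed for a test. The 5 tumours together held 5 fragments of these 10 genes and the 3 normal brains 0. Interferon genes outside these 10 were not counted. Single fragments came from Ifna4 in glioblastoma 5, from Ifne in glioblastomas 1 and 3, and from Ifng in glioblastomas 3 and 4. At this depth 3 fragments in a library is the limit that a count of 0 allows, so no difference between the groups was detectable.

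Receptor chains and kinases were mostly higher, by smaller steps. Of 9 tested genes of this list 8 were higher and 0 lower, where 37.1% of all tested genes were higher and 33.9% lower. The 9 genes had a median log2 fold change of 0.96, against 4.04 for the 43 members. At an unadjusted p 1 of the 9 was lower, as it was by DESeq2 and by limma. Il10rb, the chain shared by the receptors for interferon lambda and interleukin 10, had the largest change. It was at 43.7, 52.9, 52.2, 50.1 and 50.7 CPM in glioblastomas 1 to 5, against 8.12, 5.05 and 7.91 CPM in normal brains 1 to 3 (log2 fold change 2.83 ± 0.20 SE, adjusted p = 4.84e-06, edgeR). Ifngr2, which had the highest level per length of the list, was at 101, 117, 86.2, 76.4 and 144 CPM in glioblastomas, against 55.7, 63.9 and 60.8 CPM in normal brains (0.81 ± 0.21, adjusted p = 0.00851, edgeR). Neither pair of groups overlapped, and for 36.1% of all tested genes every tumour was above every normal brain. The other receptor chains gave log2 fold changes of 2.17 ± 0.14 for Ifngr1, 1.71 ± 0.14 for Ifnar2 and 0.46 ± 0.14 for Ifnar1. The call of Ifnar1 was lost without normal brain 1 (0.45, adjusted p = 0.0603) and without normal brain 3 (0.45, adjusted p = 0.0618, edgeR). Jak1 was the only kinase not called (-0.29 ± 0.12, adjusted p = 0.0555, edgeR). It was called lower without glioblastoma 5 (-0.34, adjusted p = 0.0391), with a filter of 5 CPM in 3 samples, with DESeq2 and with limma. Ifnlr1, the specific chain of the lambda receptor, did not reach the filter.

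Genes that sense nucleic acid and lead to interferon production were mostly higher. Of 13 tested genes of this list 11 were higher and 0 lower, where 37.1% of all tested genes were higher and 33.9% lower. In the list 0 were lower at an unadjusted p, by DESeq2 or by limma. Ikbke and Cgas were below the filter level in every normal brain and passed only through the tumours. Of the other 11 genes 9 were higher, where 31.7% of tested genes at or above that level in every normal brain were higher. Ikbke, a kinase that activates Irf3 and Irf7, was at 11.8, 20.2, 16.6, 8.62 and 20.4 CPM in glioblastomas, against 1.01, 0.289 and 0.682 CPM in normal brains (log2 fold change 4.54 ± 0.49 SE, adjusted p = 5.31e-05, edgeR). Sting1, the adaptor for cytosolic DNA, was at 53.4, 53.2, 66.7, 42.0 and 48.9 CPM in glioblastomas, against 3.89, 3.03 and 2.32 CPM in normal brains (4.10 ± 0.25, adjusted p = 2.48e-06, edgeR). Both were clear of overlap. Cgas, the DNA sensor that feeds Sting1, changed by 3.36 ± 0.33, Ddx58, which encodes the RNA sensor RIG-I, by 3.85 ± 0.26, and its adaptor Mavs by 2.40 ± 0.23. Tbk1, the kinase closely related to Ikbke, was not called (-0.20 ± 0.16, adjusted p = 0.302, 95% interval -0.57 to 0.17), nor was Tlr3 (0.25 ± 0.17, adjusted p = 0.2, 95% interval -0.13 to 0.63, edgeR).

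Among the transcription factors, 3 of 4 members were higher, with a median log2 fold change of 2.96. Irf7, the factor that amplifies the type I response, had the largest change and the highest level per length of the 4. It was at 47.3, 75.8, 76.9, 24.3 and 40.2 CPM in glioblastomas, against 0.507, 1.01 and 0.682 CPM in normal brains (log2 fold change 6.13 ± 0.55 SE, adjusted p = 1.94e-05, edgeR). The lowest tumour, glioblastoma 4, was still far above the highest brain. Irf1, the main factor of the interferon gamma response, changed by 3.28 ± 0.30 and Irf9, the DNA-binding partner of Stat2, by 2.64 ± 0.22.

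Stat2 stood apart from these. Its levels were 19.4, 23.3, 31.8, 13.5 and 20.3 CPM in glioblastomas and 12.7, 14.7 and 15.7 CPM in normal brains (log2 fold change 0.59 ± 0.27 SE, 95% interval -0.02 to 1.2, adjusted p = 0.0776, edgeR). Glioblastoma 4 fell within the range of the brains and the other 4 tumours above it. Without glioblastoma 4 Stat2 was called higher (0.73, adjusted p = 0.0109), as it was without that tumour and normal brain 1 together (0.65, adjusted p = 0.0466) and with plain library sizes (0.71, adjusted p = 0.0285, edgeR).

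All 3 Ifit genes were higher, with log2 fold changes of 2.57 to 4.76. Ifit1, which binds RNA that lacks the methyl marks of host caps, was at 64.4, 115, 91.0, 36.5 and 64.9 CPM in glioblastomas, against 2.71, 2.16 and 3.27 CPM in normal brains (4.76 ± 0.44 SE, adjusted p = 2.21e-05, edgeR). Its promoter is the one above with 2 separate ISRE matches. Ifit3, which in human cells stabilises Ifit1 in a complex, was at 54.9, 122, 67.0, 40.9 and 42.3 CPM in glioblastomas, against 6.60, 4.04 and 5.73 CPM in normal brains (3.58 ± 0.45, adjusted p = 0.000129, edgeR). Neither gene overlapped between groups, and both were highest in glioblastoma 2. Ifit3b, a near-identical copy of Ifit3 that is outside the list, changed by 3.01 ± 0.48, and how fragments were divided between the copies is uncertain.

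The Ifitm genes, whose membrane proteins block the entry of viruses, were among the most abundant members in the tumours. All 3 were higher, with log2 fold changes of 4.58 to 5.90. Ifitm3 was at 57.5, 68.2, 105, 40.0 and 78.5 CPM in glioblastomas, against 1.52, 2.74 and 1.77 CPM in normal brains (5.10 ± 0.41 SE, adjusted p = 1.05e-05, edgeR). Ifitm2 varied least between tumours of all 43 members (SD of log2 CPM 0.14), at 61.7, 67.8, 62.3, 52.0 and 59.3 CPM in glioblastomas, against 2.37, 2.89 and 2.32 CPM in normal brains (4.58 ± 0.18, adjusted p = 3.89e-07, edgeR). Ifitm1 spread further, with 25.1, 85.9, 36.7, 24.2 and 51.4 CPM in glioblastomas, against 0.169, 0.721 and 1.23 CPM in normal brains (5.90 ± 0.70, adjusted p = 9.06e-05, edgeR). Each tumour was above each brain for all 3. The fold change of Ifitm1 was 6.56 without normal brain 3.

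The Oas family, enzymes and relatives of enzymes that make the second messenger activating RNase L, had a median log2 fold change of 6.29, and all 5 members were higher. Oas1a, Oas2, Oas3 and Oasl1 passed the filter only through the tumours, and their fitted values depend on the scale: by limma the family's median was 4.35 on log2(FPKM + 0.1) and 3.07 on log2(FPKM + 1), below the 5.05 and 4.77 of the Ifitm genes, which had 5.10 by edgeR. In normal brain the family was nearly silent, with summed levels of 1.73 to 4.5 CPM, against 58.6 to 156 CPM in glioblastomas. Oasl2 was at 57.7, 68.7, 71.2, 34.1 and 47.3 CPM in glioblastomas, against 2.03, 1.59 and 3.82 CPM in normal brains (log2 fold change 4.47 ± 0.40 SE, adjusted p = 1.77e-05, edgeR). Oasl1, known in mice to restrain translation of Irf7, was at 20.8, 34.5, 30.1, 14 and 21.6 CPM in glioblastomas, against 0.169, 0 and 0.273 CPM in normal brains. Its brain level rests on 3 fragments, so the ratio of levels is given with its counting interval, 146 (95% exact Poisson interval 49.8 to 706), and the fitted log2 fold change was 7.21, or 8.03 without normal brain 3 (adjusted p = 1.36e-05 with all libraries, edgeR).

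Oas3 varied most between tumours of all members (SD of log2 CPM 1.09). It was at 5.27, 17.7, 13.2, 2.45 and 9.13 CPM in glioblastomas, and a single fragment, in normal brain 1, was counted over the 3 brains. The ratio was 160, with an interval of 28.7 to 6310, and the fitted log2 fold change was 7.20, or 9.43 without that brain (adjusted p = 0.00048 with all libraries, edgeR). Oas2 had 1 fragment in each brain and a ratio of 29.0 (9.91 to 140). For the Oas genes glioblastoma 4 was the lowest tumour in 5 of 5 cases.

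Both Mx genes, GTPases that trap viral components, were higher. Mx2 was at 6.82, 13.4, 7.94, 6.93 and 6.46 CPM in glioblastomas, against 1.18, 1.59 and 0.682 CPM in normal brains (log2 fold change 2.83 ± 0.41 SE, adjusted p = 0.000281, edgeR). Mx1 is recorded as a transcribed pseudogene in the mouse reference, and its fragments were partly shared with another transcript. It was at 10.4, 11.5, 2.77, 2.80 and 3.80 CPM in glioblastomas, and the 3 fragments counted over the normal brains all came from normal brain 3. The ratio of levels was 33.7 (interval 11.5 to 163), and the fitted log2 fold change was 5.26, or 8.78 without normal brain 3 (adjusted p = 0.00195 with all libraries, edgeR). Glioblastomas 1 and 2 were high and the other 3 low for Mx1, a split that Mx2 did not show.

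The Gbp and Irg genes encode GTPases that attack the membranes around intracellular microbes and respond strongly to interferon gamma. All 7 were higher, with log2 fold changes of 2.31 to 4.68. Irgm1, a regulator of the Irg system, was at 179, 167, 124, 150 and 82.5 CPM in glioblastomas, against 12.7, 10.1 and 10.6 CPM in normal brains (3.66 ± 0.29 SE, adjusted p = 1.01e-05, edgeR). Ifi47 had the largest change of the family, at 28.2, 44.0, 30.1, 23.4 and 21.3 CPM in glioblastomas, against 0.846, 0.721 and 1.77 CPM in normal brains (4.68 ± 0.41, adjusted p = 1.56e-05, edgeR). Irgm2 had the smallest change, at 26.5, 30.7, 25.8, 20.3 and 19.6 CPM in glioblastomas, against 6.09, 4.04 and 4.77 CPM in normal brains (2.31 ± 0.24, adjusted p = 4.11e-05, edgeR). No Gbp or Irg gene overlapped between groups. Igtp, whose sequence above pairs a GAS with an ISRE match as that of Irgm2 does, changed by 3.23 ± 0.46. Fragments of Ifi47 were partly shared with another transcript.

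The 4 nucleic acid sensors on the list were higher, with log2 fold changes of 2.78 to 6.75. Zbp1, which recognises left-handed nucleic acid and can start necroptosis, was at 15.5, 38.6, 34.9, 8.62 and 16.4 CPM in glioblastomas, against 0, 0.144 and 0.409 CPM in normal brains (6.75 ± 0.87 SE, adjusted p = 0.000145, edgeR). Its fold change was 7.96 without normal brain 3. Eif2ak2, which encodes the kinase PKR that halts translation on double-stranded RNA, was even across tumours at 92.8, 104, 102, 75.1 and 102 CPM, against 9.13, 8.37 and 9.95 CPM in normal brains (3.38 ± 0.17, adjusted p = 1.05e-06, edgeR). The RNA helicases Ifih1 and Dhx58 changed by 2.78 ± 0.35 and 3.72 ± 0.32.

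Isg15, a ubiquitin-like protein joined to others during the response, was at 29.2, 33.0, 35.4, 16.8 and 34.1 CPM in glioblastomas, against 0.338, 0.289 and 0.682 CPM in normal brains (log2 fold change 6.02 ± 0.42 SE, adjusted p = 4.86e-06, edgeR). Glioblastoma 4 stood below the other tumours and still above every brain. Usp18, the protease that removes Isg15 and also dampens the type I receptor, changed by 5.26 ± 0.47, and the ubiquitin ligase Trim25 by 3.55 ± 0.25. Herc6, the mouse ligase for Isg15, changed least of the members called. It was at 32.4, 55.7, 40.5, 27.3 and 25 CPM in glioblastomas and at 26.7, 16.2 and 13.2 CPM in normal brains, so glioblastoma 5 lay below normal brain 1 (0.95 ± 0.33 SE, adjusted p = 0.0299, edgeR). This call was lost without glioblastoma 3 (0.91, adjusted p = 0.0539), without normal brain 2 (0.86, adjusted p = 0.102) and without normal brain 3 (0.76, adjusted p = 0.112, edgeR).

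Of the 11 other effectors 10 were higher, with a median log2 fold change of 4.04. Bst2, or tetherin, which holds budding virus at the cell surface, was at 87.6, 138, 111, 76.5 and 75.3 CPM in glioblastomas, against 3.04, 1.88 and 1.91 CPM in normal brains (5.42 ± 0.33 SE, adjusted p = 2.63e-06, edgeR). Isg20, an exonuclease, was at 5.74, 5.41, 12.9, 4.48 and 6.95 CPM in glioblastomas, with a single fragment over the brains, in normal brain 1. The ratio was 135 (interval 24.3 to 5350), and the fitted log2 fold change was 6.78, or 9.01 without that brain (adjusted p = 9.63e-05 with all libraries, edgeR). Ifi44 changed by 5.45 ± 0.55, Parp14 by 4.04 ± 0.35 and Ifi27, already abundant in normal brain, by 1.64 ± 0.30.

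Rsad2 and Cmpk2 are neighbouring genes on chromosome 12, on opposite strands, with starts 12763 bases apart, and are known to be induced together by interferon. Rsad2, or viperin, an enzyme that makes a chain-terminating nucleotide, was at 53.0, 105, 101, 36.6 and 44.1 CPM in glioblastomas, against 1.69, 2.31 and 2.04 CPM in normal brains (log2 fold change 5.06 ± 0.50 SE, adjusted p = 3.34e-05, edgeR). Cmpk2, a mitochondrial nucleotide kinase, was at 18.6, 37.2, 27.7, 18.7 and 15.9 CPM in glioblastomas, against 41.3, 32.9 and 36.7 CPM in normal brains (-0.65 ± 0.28 SE, 95% interval -1.29 to -0.02, adjusted p = 0.0629, edgeR). For Cmpk2 only glioblastoma 2 lay within the range of the brains, and the other 4 tumours lay below it. It was called lower without glioblastoma 2 (-0.86, adjusted p = 0.00818, edgeR) and by limma on log2 FPKM (-0.71, adjusted p = 0.0472, with a pseudocount of 0.1). Among the tumours alone Cmpk2 and Rsad2 had the same 2 highest libraries, glioblastomas 2 and 3, while the lowest tumour was glioblastoma 4 for Rsad2 and glioblastoma 5 for Cmpk2. The sources used here do not give the strand setting of the counting, so reads of any transcript that overlaps either gene cannot be told apart from its own.

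**Figure D2:**
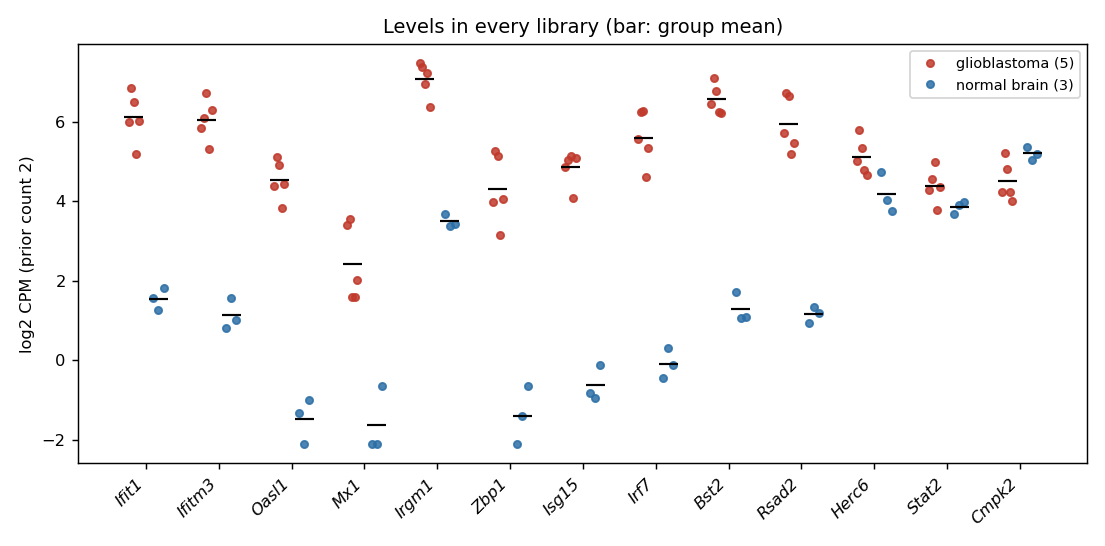
Levels of 13 members in every library are plotted as log2 CPM with a prior count of 2 (y axis), with the 5 glioblastomas in red left of the 3 normal brains in blue and a bar at each group's mean. The groups are separate for 10 of these genes, and Herc6, Stat2 and Cmpk2 at the right overlap.

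Levels of different genes can be compared per transcript length, as the deposited FPKM values. By this measure Bst2 was the most abundant member in glioblastomas, at 163 ± 47.5 FPKM, against 3.81 ± 1.10 FPKM in normal brains (SD, n = 5 and 3). Ifitm3 followed with 147 ± 51.7 FPKM in glioblastomas and 4.26 ± 1.37 FPKM in normal brains. Ifitm2 was at 134 ± 14.8 FPKM in glioblastomas and 5.61 ± 0.708 FPKM in normal brains, and Ifi27 at 130 ± 46.5 FPKM in glioblastomas and 42.6 ± 1.60 FPKM in normal brains. The ranges of these 4 overlapped in the tumours, and their order differed from tumour to tumour. In normal brain the order was another, with Ifi27 first and Cmpk2 second at 11.7 ± 1.29 FPKM, where glioblastomas had 7.47 ± 2.91 FPKM. At the low end in the tumours stood Oas2, with 1.30 ± 0.664 FPKM, and Oas3, with 2.0 ± 1.30 FPKM. Their ranges over the tumours overlapped, but Oas3 was above Oas2 in every glioblastoma.

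Of 12 tested genes known to restrain the response 7 were higher and 3 lower, where 37.1% of all tested genes were higher and 33.9% lower. Socs1 and Nlrc3, both higher, passed the filter only through the tumours, and 5 of the other 10 were higher. Socs3, an inhibitor of Jak kinases induced mainly by Stat3, was at 80.5, 106, 90.0, 83.0 and 86.1 CPM in glioblastomas, against 1.52, 1.59 and 2.73 CPM in normal brains (log2 fold change 5.49 ± 0.25 SE, adjusted p = 6.26e-07, edgeR). Adar, which edits double-stranded RNA so that sensors do not read it as foreign, was lower in every tumour, at 83.1, 96.2, 90.4, 58.1 and 82.3 CPM in glioblastomas, against 270, 270 and 279 CPM in normal brains (-1.73 ± 0.16, adjusted p = 2.35e-05, edgeR). One of the Adar promoters is known to be induced by interferon. Pias1, an inhibitor of the pathway's transcription factors, was lower as well (-0.78 ± 0.17, adjusted p = 0.00285, edgeR). Irf2, which competes with Irf1, was lower (-0.72 ± 0.28, adjusted p = 0.0466), but that call was lost without any single library except glioblastoma 1 or 5, and without normal brain 1 the value was -0.50 (adjusted p = 0.205, edgeR). Ptpn2, a phosphatase that acts on Jak1, was at 67.3, 97.4, 71.8, 62.7 and 67.1 CPM in glioblastomas, against 48.4, 54.4 and 52.5 CPM in normal brains (0.50 ± 0.17, adjusted p = 0.024, edgeR). Its call was lost without normal brain 1 (0.45, adjusted p = 0.0887), normal brain 2 (0.54, adjusted p = 0.0559) or normal brain 3 (0.52, adjusted p = 0.0653, edgeR).

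The tumours differed among themselves in the level of the list. The members summed to 2110, 2900, 2440, 1630 and 1710 CPM in glioblastomas 1 to 5, against 270, 226 and 254 CPM in normal brains 1 to 3. Glioblastoma 2 was the highest tumour for 30 of 43 members and glioblastoma 3 for 11, and glioblastoma 4 was the lowest for 27 and glioblastoma 5 for 15. The exceptions were Irgm1, highest in glioblastoma 1, Ifi27, highest in glioblastoma 4, and Mx1, lowest in glioblastoma 3. The median SD of log2 CPM over members was 0.50 in glioblastomas and 0.34 in normal brains, against 0.38 and 0.15 over all tested genes. The SD was larger among tumours for 32 of 43 members and for 85.1% of all tested genes.

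The families did not order the tumours alike. The Oas sums were 101, 156, 147, 58.6 and 94.9 CPM in glioblastomas 1 to 5, against 2.88, 1.73 and 4.5 CPM in normal brains, lowest among tumours in glioblastoma 4. The Gbp and Irg sums were 517, 583, 384, 374 and 268 CPM in glioblastomas 1 to 5, against 39.9, 28.0 and 33.7 CPM in normal brains, lowest among tumours in glioblastoma 5. That tumour was the lowest for 7 of 7 Gbp and Irg genes and for 0 of 5 Oas genes. As median deviations from the mean of the 5 tumours on the log2 scale, glioblastoma 1 was at -0.15 for the Oas genes and at 0.39 for the Gbp and Irg genes. Glioblastoma 3 was at 0.68 for the Oas genes and at -0.13 for the Gbp and Irg genes. Glioblastoma 4 was at -1.2 for the Oas genes and at -0.25 for the Gbp and Irg genes. With 1 library a tumour these are values of single samples, with no error of their own. Members of a family are measured in the same libraries and are not independent.

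**Figure D3:**
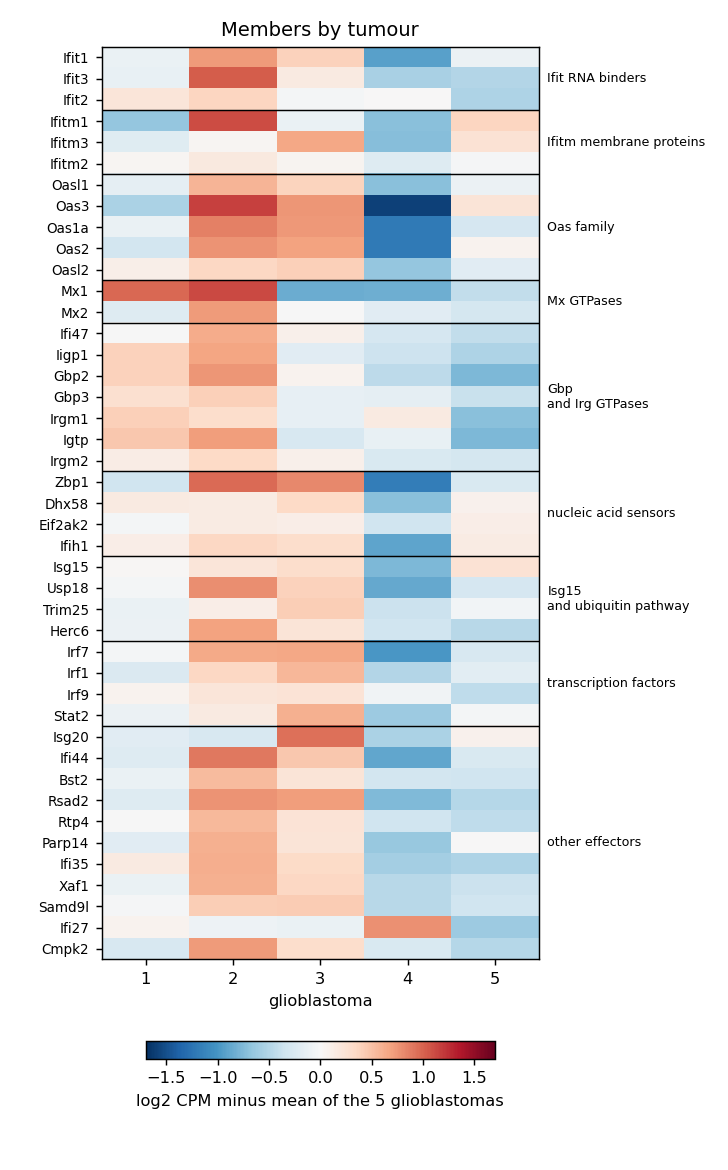
The colour of each cell is the log2 CPM of a member (rows, grouped by role) in 1 of the 5 glioblastomas (columns) minus that member's mean over the 5, with red above and blue below. Glioblastoma 2 is above the mean for every member but Isg20, at -0.28, and Ifi27, at -0.09, glioblastoma 4 is darkest for Oas3, at -1.58, and the Gbp and Irg genes are red in glioblastoma 1 apart from Ifi47, at -0.01.

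The macrophage and monocyte markers summed to 1080, 2320, 2580, 1020 and 2240 CPM in glioblastomas 1 to 5, against 156, 172 and 180 CPM in normal brains. These sums were low in glioblastomas 1 and 4. Of the 2240 CPM in glioblastoma 5, Lyz2 held 892 CPM and Mrc1 612 CPM. By gene, glioblastoma 4 was the lowest tumour for 8 of the 10 markers and glioblastoma 1 for 1. Glioblastoma 5 was the highest tumour for 1 marker and the lowest for 1, with a median deviation of 0.14. The Ifitm sums were 144, 222, 204, 116 and 189 CPM in glioblastomas, against 4.06, 6.35 and 5.32 CPM in normal brains, and were likewise lowest in glioblastomas 4 and 1. The Ifit sums were 261, 395, 278, 200 and 192 CPM in glioblastomas, against 35.5, 23.1 and 29.4 CPM in normal brains. Among tumours the Ifit sum was lowest in glioblastoma 5, whose macrophage sum was high. By gene, though, glioblastoma 4 was the lowest tumour for 2 of 3 Ifit genes and glioblastoma 5 for 1. For the Gbp and Irg genes glioblastoma 5 was the lowest in 7 of 7 cases. Glioblastoma 4, the lowest tumour for 27 members, also stood apart in markers of brain cells. Astrocyte markers summed to 1430, 1130, 895, 2520 and 1120 CPM in glioblastomas 1 to 5, against 4570, 5050 and 4730 CPM in normal brains. Myelinating oligodendrocyte markers summed to 571, 461, 264, 840 and 239 CPM in glioblastomas, against 6000, 3100 and 3090 CPM in normal brains. Neuron markers summed to 469, 911, 734, 251 and 550 CPM in glioblastomas, against 7940, 6810 and 6910 CPM in normal brains. Among the tumours glioblastoma 4 was thus highest for astrocyte and myelin markers and lowest for neuron markers. Neutrophil markers summed to 17.6 to 60.6 CPM in glioblastomas and to 2.54 to 3.27 CPM in normal brains. Markers of T and NK cells, which are among the sources of interferon gamma, summed to 3.78 to 7.40 CPM in glioblastomas and to 0.289 to 1.35 CPM in normal brains. In that list Cd3e had 1 fragment over the 5 tumours and 0 over the brains, Gzmb had 62 and 0, and Klrb1c had 82 and 1, and Gzmb and Klrb1c, the only 2 that reached the filter, did so through the tumours. The part of these cell types in the levels of the interferon-stimulated genes was not tested.

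**Figure D4:**
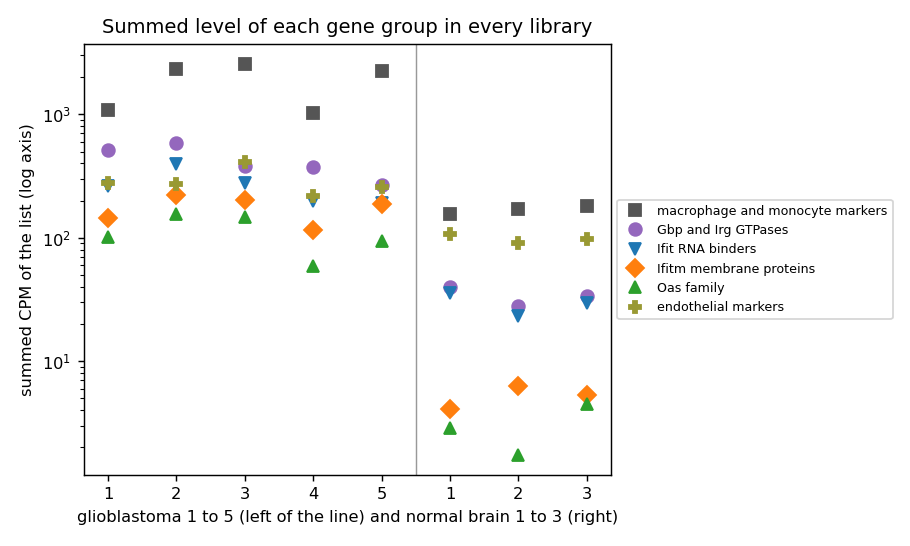
Summed CPM on a log axis (y) is plotted for 4 families of interferon-stimulated genes and for macrophage and endothelial markers in each library (x), with the 5 glioblastomas left of the line and the 3 normal brains right of it. Each sum is higher in every tumour than in every brain. The Oas sums are at 58.6 to 156 CPM in tumours and 1.73 to 4.5 CPM in brains. Among tumours the macrophage sums are low in glioblastomas 1 and 4.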

How the data were processed

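RNA was column-purified with DNase treatment and made into TruSeq RNA libraries, per the labels' protocols. The submitters' processing notes name Cuffdiff 2.1.1, STAR 2.3.0e and the build mm9, without roles. The sources used here do not give the strand setting, annotation release or filters. The authors deposited estimated counts of fragments per RefSeq accession and library, per the file headers, and beside them FPKM, which the authors had already scaled for depth and length. Accessions of 1 gene divide its fragments: where a gene had several, 33.2% of accession values, but 97.8% of gene sums, were whole within 0.01. The 30967 accessions (30474 named by the RefSeq gene table and 178 by GENCODE) were therefore added up by gene and rounded. Gene sums that were not whole marked 608 genes, Mx1 and Ifi47 among them, as sharing fragments. Every pair of libraries of a group differed beyond counting noise.

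Glioblastomas (n = 5) and normal brains (n = 3) were compared with edgeR 4.0.16 in R 4.3.3 (TMM factors, filterByExpr at its defaults, robust quasi-likelihood fit, Benjamini-Hochberg adjustment over 14641 genes, threshold 0.05), which was checked on simulated data. Standard errors come from the F statistic. Poisson intervals cover counting error only. Alternatives were DESeq2 1.42.0, limma 3.58.1 on log2(FPKM + 1) and log2(FPKM + 0.1), other scalings and filters, and leaving out libraries. The members and gene lists were chosen with earlier results of these data known. Values in every library are given for the member of each role with the largest change and with the highest FPKM, those not called higher, the 3 most and 3 least variable among tumours, and matching genes of each pathway list. Herc6, Rsad2, Oas2 and genes given by fold change alone were added after their values were seen. Trac, a T cell marker, was not analysed here. One gene of the list of receptors and kinases is counted in that list and not reported here on its own.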

Additional observations from a re-analysis of the deposited data

Results flagged for a closer look

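In 5 of the 50 gene profiles examined over the 5 tumours, 1 tumour stood apart by the gap to its nearest neighbour divided by the whole range on the log2 CPM scale, for which Dixon's 95% critical value is 0.71 with 5 samples. Chance gives about 1 such case in 20 groups. Glioblastoma 4 was low for Ifih1 (gap ratio 0.806, level 36.9 CPM), Dhx58 (0.751, 10.1 CPM) and Isg15 (0.739, 16.8 CPM). Glioblastoma 2 was high for Mx2 (0.718, 13.4 CPM), and glioblastoma 1 was low for the receptor chain Il10rb (0.715, 43.7 CPM). In all 5 cases every tumour remained above every normal brain.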

How the results depend on the processing

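Over 17 alternative settings 39 to 42 members were called higher. The 39 came with a filter of 5 CPM in 3 samples and with genes that share fragments left out, each of which tests fewer members, and leaving out 1 library gave 40 to 42. One member, Cmpk2, was called lower with limma at either pseudocount (1 member each), and leaving out 1 library gave 0 to 1. In the receptor list 1 gene, Jak1, was called lower with DESeq2, with the 5 CPM filter and with limma at either pseudocount, and leaving out 1 library gave 0 to 1. Over the same settings 4796 to 5893 of all tested genes were called higher and 4410 to 5465 lower. Of the members' fold changes, none reversed under any of these settings, 718 values kept their call, 6 gained one (Stat2 and Cmpk2, 3 each) and 3 lost one (Herc6). The cause was not tested. The size of the change depended on the scale. With limma on log2(FPKM + 1), 26 of 43 fold changes, taken off the log scale, were smaller by over 1.5 times. On log2(FPKM + 0.1) 6 of 43 were, as a pseudocount shrinks changes of genes at low levels. On these scales the log2 fold changes were 1.45 and 3.97 for Oas3, 1.09 and 3.17 for Oas2, 1.54 and 3.91 for Mx1, and 3.05 and 5.79 for Isg20. Plain library sizes moved the median of all genes by 0.14 on the log2 scale. No paired analysis was possible because the labels carry no replicate numbers, and the numbers used here only count the libraries of a group in order. Depth limits the fold changes of members with at most 3 brain fragments (Oas2, Oas3, Oasl1, Mx1, Isg20), and 3 brains limit every comparison.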
